A study of Mus musculus with 50 samples.

Results

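The mammalian mitochondrial genome carries its own small set of genes, and these were followed through RNA sequencing of the mouse thyroid after antibody blockade of Notch signalling. The members are the genes whose Ensembl identifier maps to a mouse symbol that begins with mt-. There were 37 of them among 52636 genes in the count table: 13 encode proteins, 2 encode the ribosomal RNAs of the mitochondrial ribosome and 22 encode transfer RNAs. Mitochondrial DNA is copied into long transcripts from both strands, and these are processed into separate RNAs, largely at the transfer RNAs that lie between the other genes. Its proteins are subunits of the respiratory chain and of ATP synthase, the remaining subunits being made from nuclear genes. In the thyroid, follicular cells use mitochondrial ATP while they make the hormone precursor thyroglobulin, encoded by Tg.

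The 50 libraries came from male C57BL/6 mice with a labelled age of 10 to 14 weeks, in 10 groups of 5. Each mouse received 1 intraperitoneal injection. The control antibody, anti-ragweed (RW), was given at 40 mg/kg. In aJ1aJ2, antibodies to the Notch ligands Jag1 and Jag2 were combined, with 20 mg/kg of each. In aN1aN2, the receptors were blocked with 5 mg/kg of antibody to Notch1 and 10 mg/kg to Notch2, and aN1aN2aN3 added 20 mg/kg of antibody to Notch3. Thyroids taken at 15 hours and at 5 days gave RW, aJ1aJ2 and aN1aN2 groups. Thyroids taken at 7 days came in a first set of RW and aJ1aJ2 and a second set of aJ1aJ2 and aN1aN2aN3 without an RW group. The series text also mentions thyroid hormone injections, which the labels do not tie to individual mice. The labels number the libraries of a group, and p-values measure the spread between those libraries.

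Libraries held 15.3 to 52.8 M counts. In the 40 libraries outside the second set, the 10 follicular cell genes (Tg, Pax8 and others) took 0.455 to 42.8% of counts, and in the second set they took 1.26 to 3.04% with aJ1aJ2 and 3.92 to 6.82% with aN1aN2aN3. All 10 had counts in every group. The second set also held more of the nuclear RNA Malat1, at 3889 to 7559 CPM (counts scaled to a common library total) with aJ1aJ2, against 450.0 to 1648 in the 40 other libraries. The aJ1aJ2 replicate 5 of the second set and the RW and aJ1aJ2 replicates 3 at 5 days stood apart in the values below, and several results are also given without them. In bulk tissue, fewer cells of a type and less RNA per cell cannot be told apart.

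Several members could not be counted apart from nuclear genes that carry the same letters. Reads were 50 bases long per the labels, so each member's transcript was searched in 50-base windows against all other annotated transcripts. All 635 windows of mt-Co2, which encodes a core subunit of cytochrome oxidase (complex IV), occurred exactly in another gene, mainly Gm28661. The 681 bases aligned between mt-Co2 and Gm28661 held 0 mismatches. For mt-Nd3, a complex I subunit, 293 of 299 windows occurred in Gm28438, and the aligned 345 bases held 1 mismatch, T3C, counted from the first base of the mt-Nd3 transcript. The first 50 aligned bases of both pairs are shown, with capitals marking the mismatch. A read of the mt-Co2 stretch matches both genes equally. For mt-Nd3 only a read that covers the mismatch can be told apart from Gm28438 within the bases shown. The sequences are those of GENCODE M21 transcripts (GRCm38).
mt-Co2: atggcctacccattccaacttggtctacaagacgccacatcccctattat
Gm28661: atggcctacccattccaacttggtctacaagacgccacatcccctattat
mt-Nd3: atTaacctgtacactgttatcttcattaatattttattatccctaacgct
Gm28438: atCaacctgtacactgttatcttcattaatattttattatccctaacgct

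Shared windows were also nearly complete for mt-Atp6 (629 of 632, with Gm10925), mt-Co3 (734 of 735, with Gm28437) and mt-Nd4l (245 of 248, with Gm10222). They were fewer for mt-Nd4 (827 of 1329), mt-Co1 (765 of 1496), mt-Nd5 (135 of 1775), mt-Nd2 (81 of 989) and mt-Rnr2 (16 of 1533). None was found for mt-Nd1, mt-Nd6, mt-Cytb, mt-Rnr1, mt-Atp8 or any of the 22 transfer RNAs. Some members also overlap each other, mt-Atp8 with mt-Atp6 and mt-Nd4l with mt-Nd4, and reads there may belong to either. Only annotated transcripts were searched, so nuclear sequence between genes was not examined. How reads that match in several places were assigned is not stated in those sources that were used here.

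The protein-coding members fell into 7 abundant and 6 scarce genes, a division made after their values were seen. Per kilobase of transcript, mt-Cytb, the complex III subunit cytochrome b, was highest in the RW group at 7 days at 6972 ± 1406 CPM per kb (SD, n = 5). It was followed by mt-Nd1, a complex I subunit, at 4832 ± 1123. Then came mt-Nd2 at 2265 ± 618, mt-Nd6 at 2082 ± 555 and mt-Nd4 at 1935 ± 441, all complex I subunits. The complex IV subunit mt-Co1 stood at 1753 ± 281 and the complex I subunit mt-Nd5 at 1345 ± 376 CPM per kb. From mt-Nd2 down to mt-Co1, neighbours in this order differed by less than the SD of either gene.

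The other 6, mt-Co2, mt-Atp8, mt-Atp6, mt-Co3, mt-Nd3 and mt-Nd4l, are consecutive among the protein-coding genes on mitochondrial DNA. In the same RW group mt-Co2 reached 19.0 ± 6.28 CPM per kb, mt-Atp6 reached 15.2 ± 3.82 and mt-Co3 reached 14.0 ± 3.88. The complex I subunits mt-Nd4l and mt-Nd3 stood at 4.36 ± 1.18 and 3.75 ± 1.17, and mt-Atp8, with mt-Atp6 a subunit of ATP synthase (complex V), at 4.18 ± 0.690. Of these 6, 5 share nearly all their windows with a nuclear gene, while mt-Atp8 shares none with an annotated one. The 7 abundant genes made up 96.4 to 99.9% of all mitochondrially encoded counts, so sums over the members describe mainly those 7.

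**Figure D1:**
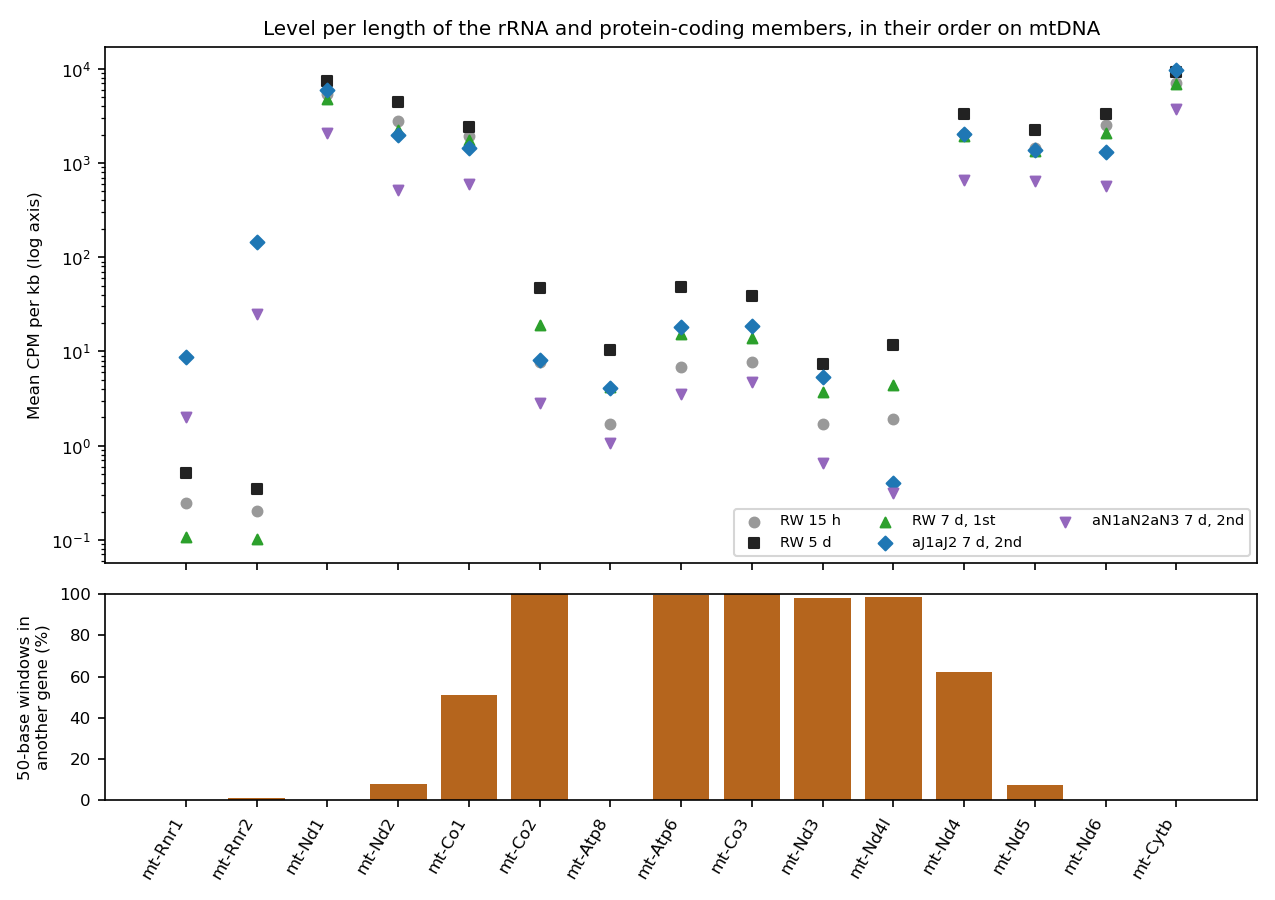
Top, mean CPM per kilobase (log axis) of the 2 ribosomal RNA and 13 protein-coding members in their order on mitochondrial DNA, with 1 symbol per group of 5 libraries for 5 of the 10 groups. Bottom, the percentage of 50-base windows of each gene found exactly in another annotated gene. The 6 genes from mt-Co2 to mt-Nd4l lie far below the genes on either side.

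By complex, the 7 complex I subunits took 1.32 ± 0.286% of all counts in the RW group at 7 days, mt-Cytb of complex III took 0.798 ± 0.161%, and the 3 complex IV subunits took 0.273 ± 0.0439%, nearly all of it mt-Co1. The 2 complex V subunits together reached only 11.2 ± 2.62 CPM (SD, n = 5).

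All 37 members together took between 0.704 and 10.6% of a library's counts. In RW libraries at 15 hours, replicates 1 to 5 gave 1.98, 3.85, 1.83, 1.23 and 4.10%. The aJ1aJ2 libraries at 15 hours gave 1.68, 1.60, 4.55, 2.13 and 1.75%, and the aN1aN2 libraries 1.92, 4.92, 4.17, 2.70 and 3.66%. These 3 groups overlapped, and each held libraries at both ends of the range. At 5 days the shares were 1.65, 1.68, 10.6, 2.78 and 1.49% with RW, 3.96, 1.70, 8.68, 2.26 and 1.76% with aJ1aJ2 and 6.29, 2.88, 1.92, 5.98 and 1.93% with aN1aN2. The RW mean of 3.65 ± 3.94% (SD, n = 5) became 1.90% without replicate 3, so the mean rested on that library. In the first set at 7 days the shares were 2.70, 1.97, 2.79, 1.76 and 2.73% with RW and 2.35, 7.01, 2.24, 2.19 and 2.95% with aJ1aJ2. The aJ1aJ2 replicate 2 stood alone above the rest there. In the second set they were 2.02, 2.07, 3.57, 2.85 and 3.12% with aJ1aJ2 and 1.73, 0.704, 0.910, 0.893 and 0.872% with aN1aN2aN3, and these groups did not overlap.

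Libraries of a group differed in their counts from muscle genes, and the mitochondrial share moved with these. The library with the highest mitochondrial share also had the highest share of 9 skeletal muscle genes (Acta1, Ckm, Mylpf and others) in 8 of 10 groups. It had the highest share of the 75 nuclear-encoded respiratory chain and ATP synthase subunits in 7 groups and the lowest Tg share in 6. Muscle was not alone in this. That library also had the highest share of haemoglobin genes and Alas2 in 6 groups, of brown fat genes in 5 and of adipocyte genes in 3. It had the lowest share of C cell genes (Calca and others) in 6. All 9 muscle genes had counts in every library, and their sum ranged from 0.0395 to 14.0% of counts. RW replicate 3 at 5 days, with 10.6% mitochondrial counts, held 14.0% muscle counts and 0.450% Tg counts. Muscle genes gave 0.134, 0.345, 14.0, 1.28 and 0.192% of counts in the 5 RW libraries at that time.

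**Figure D2:**
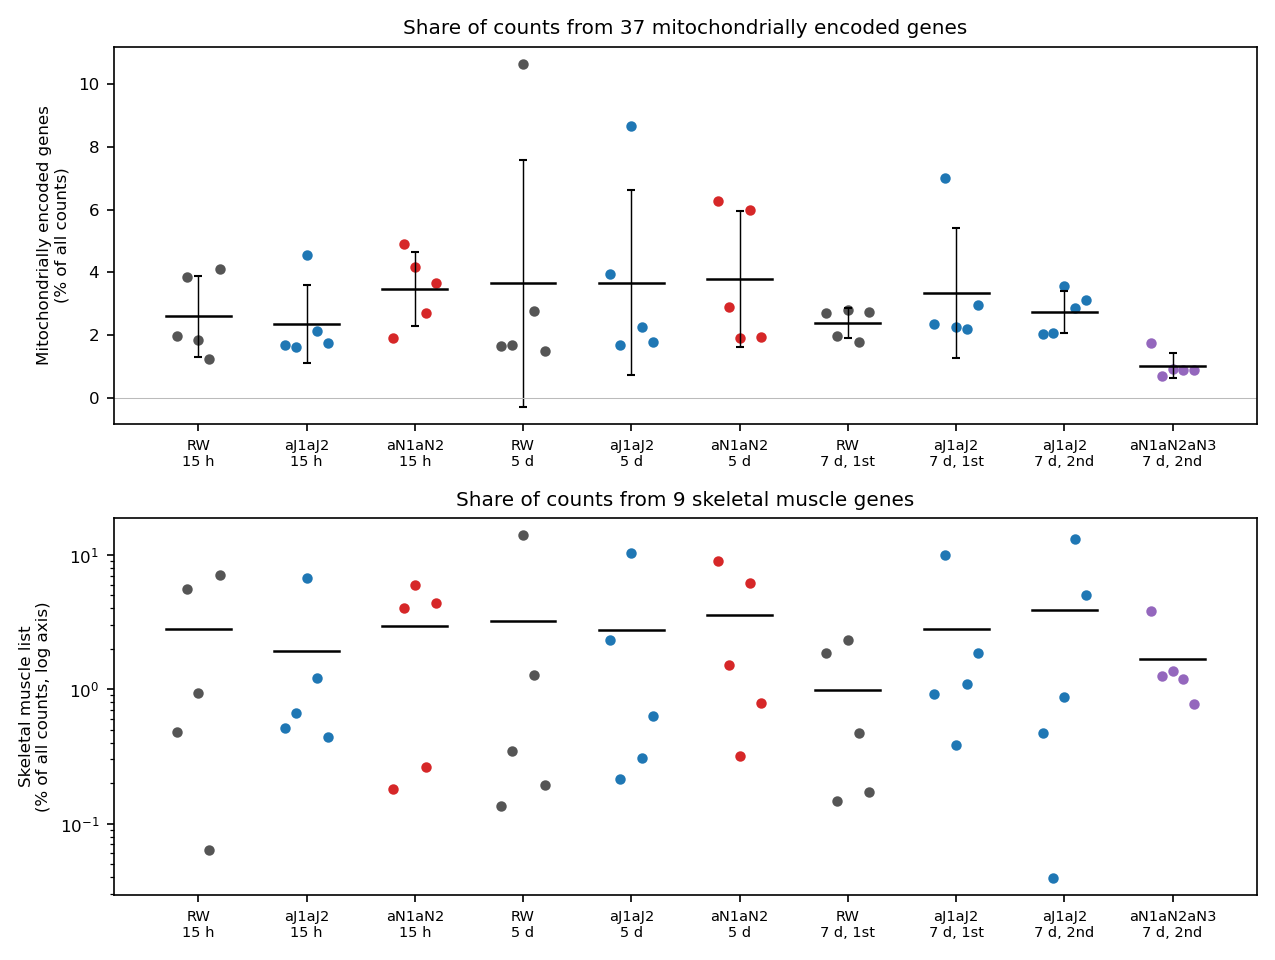
Points are libraries, left to right by replicate number, and short lines are group means; bars in the top panel are SD (n = 5). Top, percent of all counts from the 37 members. Bottom, percent of all counts from 9 skeletal muscle genes on a log axis. The highest library of a group in the top panel is also the highest in the bottom panel in 8 of 10 groups.

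At 15 hours, aN1aN2 libraries held more counts for the scarce genes than RW libraries, with little difference in the abundant ones. For mt-Atp6 the RW libraries had 2.87, 6.46, 4.92, 2.43 and 6.73 CPM and the aN1aN2 libraries 19.6, 37.02, 44.3, 29.8 and 34.4 CPM. The lowest aN1aN2 library was above the highest RW library. The log2 fold change was 2.79 ± 0.39 (SE), with an adjusted p of 0.00246 by edgeR's quasi-likelihood test with Benjamini-Hochberg adjustment over all genes. Its neighbour mt-Co3 had 4.27, 9.20, 4.15, 3.15 and 9.21 CPM with RW and 17.8, 35.1, 37.9, 25.2 and 55.5 CPM with aN1aN2. These groups did not overlap either, and the log2 fold change was 2.48 ± 0.45 (SE) (edgeR adjusted p = 0.0140). Also called were mt-Co2, at 2.85 (edgeR adjusted p = 0.00362), and mt-Nd4l, at 2.73 ± 0.60 (SE) (edgeR adjusted p = 0.0366).

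A gene was called where its adjusted p was under 0.05, and tested where it passed the count filter. In all, 4 of 22 tested members were called higher and 0 lower, where 1.68% of all tested genes were called in either direction and 0.88% higher. On CPM scaled by TMM (trimmed mean of M-values), the scale of the test, the groups did not overlap for 5 members, the 4 called genes and mt-Nd3, against 2.63% of all tested genes higher without overlap. On CPM by total counts, the scale of the printed values, mt-Atp8 was a further one, making 6, against 1.87% of all tested genes. Leaving out 1 library gave 3 to 5 calls, and mt-Nd4l lost its call in 5 of the 15 such fits, with adjusted p up to 0.105. The other scarce genes, mt-Nd3 and mt-Atp8, had log2 fold changes of 2.31 and 2.11 (edgeR adjusted p = 0.0554 and 0.151). Abundant mt-Cytb had 6656, 11356, 6089.5, 4302 and 11987 CPM with RW and 6278, 14634, 11753, 8746 and 10807 CPM with aN1aN2. These ranges overlapped, and the log2 fold change of 0.33 ± 0.41 (SE) did not pass (edgeR adjusted p = 0.772). Over the 7 abundant genes the log2 fold changes lay between 0.22 and 0.53, and the median of all tested genes was 0.01. For mt-Rnr2, the large ribosomal RNA, the counts were 9, 15, 9, 3 and 10 with RW and 6, 26, 21, 11 and 28 with aN1aN2 (log2 fold change 0.86 ± 0.65 (SE), edgeR adjusted p = 0.595). Muscle genes had a median log2 fold change of 0.23 and follicular genes one of -0.40, with 0 of 9 and 0 of 10 called. Of the 73 tested nuclear-encoded subunits, 0 were called, with a median of 0.03.

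Against aJ1aJ2 at 15 hours, aN1aN2 was higher for mt-Atp6, by 3.05 ± 0.40 (SE) on the log2 scale (edgeR adjusted p = 0.0118), and for mt-Co2, by 2.87 ± 0.42 (SE) (edgeR adjusted p = 0.0125). These were 2 of 22 tested members, against 0.13% of all tested genes called in either direction and 0.081% called higher. All 6 scarce genes lay higher without overlap on both scales, as did 1.2% of all tested genes on TMM-scaled CPM and 0.799% on CPM by total counts. The mt-Co2 call was lost without aJ1aJ2 replicate 1 and without aJ1aJ2 replicate 4, leaving 1 call each time, and 5 members were called without aJ1aJ2 replicate 3. The aJ1aJ2 libraries had 3.43, 2.83, 6.97, 4.08 and 3.19 CPM of mt-Atp6, all below the aN1aN2 libraries, and 4.35, 3.69, 9.22, 4.75 and 5.32 CPM of mt-Co2. Between aJ1aJ2 and RW at 15 hours, 0 of 22 members were called by edgeR (0.573% of all tested genes), 0 had an unadjusted p under 0.05 (6.59% of all), and 0 were called by DESeq2 or by limma on the FPKM values. The smallest p-values there belonged to mt-Rnr1, at 0.89 ± 0.78 (SE), mt-Rnr2, at 0.74 ± 0.65 (SE), and mt-Nd4l, at -0.62 ± 0.61 (SE) (edgeR adjusted p = 1.00 each). For mt-Co2 the difference was -0.02 ± 0.40 (SE).

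The same division between scarce and abundant genes separated libraries given the same antibody. RW libraries at 5 days had 15.3, 16.1, 91.8, 26.6 and 12.7 CPM of mt-Atp6, all above the RW libraries at 15 hours. The log2 fold change between RW at 5 days and RW at 15 hours was 3.31 ± 0.77 (SE) for mt-Atp6, 3.14 ± 0.76 (SE) for mt-Co2 and 3.16 ± 0.85 (SE) for mt-Nd4l. None passed the threshold (edgeR adjusted p = 0.0609, 0.0663 and 0.0884). Of 20 tested members, 0 were called (1.73% of all tested genes), 6 had an unadjusted p under 0.05 (17.8% of all) and DESeq2 called 0. Without RW replicate 3 at 5 days, edgeR called 5 members higher, mt-Atp6, mt-Co2, mt-Co3, mt-Nd3 and mt-Nd4l, and 10.4% of all tested genes. These 5 were also those whose groups did not overlap on both scales, which held for 5.21% of all tested genes on TMM-scaled CPM and 0.721% on CPM by total counts. Over the 7 abundant genes the median log2 fold change was 1.01 with that library and -0.38 without it. The aN1aN2 libraries at 5 days had 16.7, 11.5, 6.20, 21.95 and 5.91 CPM of mt-Atp6, and their range overlapped that of aN1aN2 at 15 hours. Of 22 members, 0 were called between those groups (0.232% of all tested genes), 7 had an unadjusted p under 0.05 (10.4% of all), and DESeq2 called mt-Co3 lower. The log2 fold change was -1.55 ± 0.43 (SE) for mt-Co3, -1.32 ± 0.38 (SE) for mt-Atp6, -1.54 ± 0.47 (SE) for mt-Nd4l, -1.36 ± 0.42 (SE) for mt-Co2 and -0.89 ± 0.62 (SE) for mt-Rnr2 (edgeR adjusted p = 0.270, 0.303, 0.320, 0.335 and 0.654).

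The ratio of scarce to abundant counts does not depend on library scaling. Per 1000 counts of the 7 abundant genes, the 6 scarce genes gave 0.612, 0.654, 0.753, 0.753 and 0.659 counts in RW at 15 hours. The ratio was 0.757, 0.696, 0.684, 0.722 and 0.869 with aJ1aJ2 and 3.17, 2.38, 3.35, 3.48 and 4.43 with aN1aN2 at that time. At 5 days it was 2.91, 3.02, 2.76, 3.05 and 2.69 with RW and 0.856, 1.22, 1.12, 1.23 and 0.990 with aN1aN2. The aN1aN2 libraries were thus all above RW at 15 hours and all below RW at 5 days. For aJ1aJ2 at 5 days the ratio was 3.47, 1.11, 1.10, 1.32 and 1.11, replicate 1 alone being at the RW level. In the first set at 7 days it was 1.44, 1.51, 1.43, 1.57 and 1.93 with RW and 1.64, 1.42, 1.5, 1.51 and 1.69 with aJ1aJ2, with overlapping ranges. In the second set it was 0.857, 1.00, 0.789, 0.828 and 2.91 with aJ1aJ2 and 0.909, 0.789, 0.829, 0.684 and 0.958 with aN1aN2aN3.

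In the 15-hour and 5-day libraries, the ratio followed the sample IDs in the titles. The 15-hour RW and aJ1aJ2 libraries belong to 1 run of IDs, and their 10 ratios ranged from 0.612 to 0.869. The aN1aN2 libraries of 15 hours and all 5-day libraries belong to another run of 20 IDs. This run is not unbroken, as IDs are skipped between the last RW and the first aJ1aJ2 library of 5 days. The ratio fell only after aJ1aJ2 replicate 1, the library that follows this gap. In order of ID, its first 11 libraries (aN1aN2 at 15 hours, RW at 5 days and aJ1aJ2 replicate 1 at 5 days) ranged from 2.38 to 4.43, and its last 9 from 0.856 to 1.32. The point of division was chosen from these values. No label says what a run of IDs stands for. The deposited FPKM values also place the 20 libraries of this run in a scaling block apart from the other 30. At 15 hours, antibody, run of IDs and processing block therefore cannot be told apart in the comparisons of aN1aN2 with RW or aJ1aJ2. At 5 days all RW libraries lie among the first 11 IDs of the run and all aN1aN2 libraries among the last 9, so antibody and place in the run cannot be told apart there either.

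Counts of nuclear copies divided the 15-hour and 5-day libraries in the same way. They were summed over Gm28661, Gm10925, Gm28437, Gm28438, Gm10222, Gm28439 and Gm29216, called the nuclear copies below. Other genes that share windows, such as Gm13340 with 7051 counts, were left out of the sum. The nuclear copies gave 0.280, 0.244, 0.300, 0.290 and 0.290 counts per 1000 abundant counts in RW at 15 hours. They gave 1.52, 1.52, 1.62, 1.53 and 1.96 in aN1aN2 at 15 hours and 1.60, 1.64, 1.43, 1.64 and 1.42 in RW at 5 days. The first 11 IDs of the run of 20 ranged from 1.42 to 1.96 and its last 9 from 0.389 to 0.538, so these copies divided the run at the same place. The 7-day sets did not follow this. The scarce ratio was 1.42 to 1.93 in the first set and, without aJ1aJ2 replicate 5, 0.684 to 1.00 in the second. For the copies these ranges were 0.483 to 0.599 and 0.584 to 0.813. The most counted copies over all 50 libraries were Gm10925 with 9360 counts and Gm28437 with 8715, against 21400 counts for mt-Atp6 and 21183 for mt-Co3. Whether counts moved between members and copies was not tested.

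**Figure D3:**
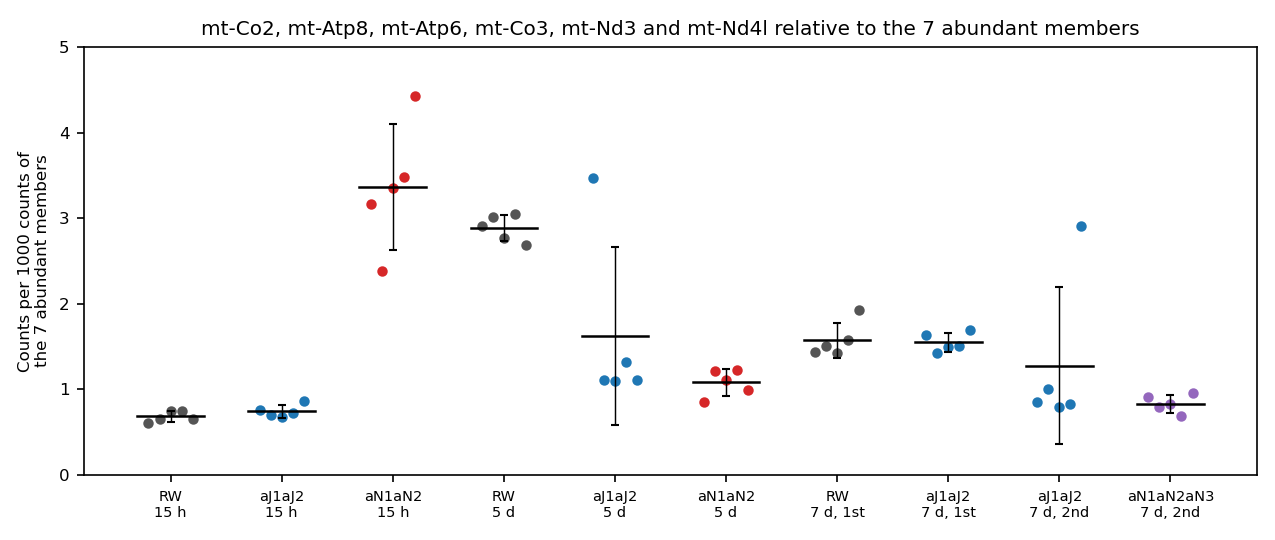
Counts of the 6 scarce protein-coding members per 1000 counts of the 7 abundant ones, for each library, left to right by replicate number; lines and bars are the mean and SD (n = 5). The aN1aN2 libraries at 15 hours, the RW libraries at 5 days, aJ1aJ2 replicate 1 at 5 days and aJ1aJ2 replicate 5 of the second set lie above all others.

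At 5 days no member passed the threshold against RW. For aJ1aJ2, 0 of 22 tested members were called by edgeR (0.179% of all tested genes), 1 had an unadjusted p under 0.05 (11.8% of all), and DESeq2 and limma called 0. The smallest p-values belonged to mt-Atp8, at -2.05 ± 0.92 (SE) on the log2 scale, mt-Nd3, at -1.63 ± 0.86 (SE), and mt-Co3, at -1.39 ± 0.77 (SE) (edgeR adjusted p = 0.404, 0.487 and 0.504). The log2 fold change of mt-Co2 was -1.26 ± 0.72 (SE) and that of mt-Rnr2 -0.86 ± 0.93 (SE) (edgeR adjusted p = 0.524 and 0.724). For aN1aN2 against RW, 0 of 22 were called by edgeR (0% of all tested genes), 6 had an unadjusted p under 0.05 (10% of all) and DESeq2 and limma called 0. The smallest p-values belonged to mt-Atp8, at -2.36 ± 0.93 (SE), mt-Nd4l, at -1.97 ± 0.80 (SE), and mt-Co3, at -1.90 ± 0.78 (SE) (edgeR adjusted p = 0.382, 0.396 and 0.402). For mt-Co2 it was -1.64 ± 0.73 (SE) and for mt-Rnr2 -1.36 ± 0.94 (SE) (edgeR adjusted p = 0.463 and 0.761).

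RW replicate 3, rich in muscle counts, widened the spread of that group. The RW libraries at 5 days had 15.8, 15.8, 90.8, 27.3 and 12.9 CPM of mt-Co2, the aJ1aJ2 libraries 42.0, 6.72, 31.7, 11.1 and 6.91 and the aN1aN2 libraries 18.4, 12.4, 7.74, 25.98 and 6.70. With the summed muscle level of each library as a covariate, edgeR called 5 members lower in aJ1aJ2 than in RW (mt-Atp6, mt-Atp8, mt-Co2, mt-Co3 and mt-Nd3) and 9 lower in aN1aN2. Those 9 were the 6 scarce genes with mt-Rnr2, mt-Ti and mt-Ts1. That fit called 4.36% of all tested genes lower for aJ1aJ2 and 3.3% for aN1aN2. Scaling also mattered at 5 days: with total counts in place of TMM factors, the median log2 fold change of all genes moved up by 0.22 for aJ1aJ2 and 0.19 for aN1aN2. The median over the 7 abundant genes then changed from -0.44 to 0.07 for aJ1aJ2 and from -0.37 to 0.07 for aN1aN2, so no direction is given for those genes. Without aJ1aJ2 replicate 3 the median for aJ1aJ2 was -1.01. Without RW replicate 3 the medians were 0.83 and 1.00, and 0 members were called in either comparison.

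Between aN1aN2 and aJ1aJ2 at 5 days, edgeR called 0 of 22 members (0% of all tested genes), 0 had an unadjusted p under 0.05 (4.22% of all) and DESeq2 and limma called 0. The members of smallest p were mt-Ts1, at -0.80 ± 0.88 (SE), mt-Nd4l, at -0.64 ± 0.78 (SE), and mt-Atp6, at -0.57 ± 0.75 (SE). For mt-Co2 the value was -0.39 ± 0.71 (SE) and for mt-Rnr2 -0.50 ± 0.94 (SE) (edgeR adjusted p = 1.00 for all 5). The aJ1aJ2 effect at 5 days minus that at 15 hours was tested in 1 fit, and 0 of 22 members were called (0.135% of all tested genes), 0 had an unadjusted p under 0.05 (11% of all), and DESeq2 called 0. The difference was -1.91 ± 1.37 (SE) for mt-Atp8, -1.37 ± 0.99 (SE) for mt-Co3, -1.23 ± 0.92 (SE) for mt-Co2 and -1.59 ± 1.25 (SE) for mt-Rnr2 (edgeR adjusted p = 0.695, 0.697, 0.717 and 0.742).

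In the first set at 7 days, aJ1aJ2 against RW, 0 of 19 tested members were called by edgeR (0% of all tested genes), 2 had an unadjusted p under 0.05 (11.6% of all), and DESeq2 and limma called 0. All 19 log2 fold changes were above 0, with a median of 0.63 against 0.01 for all tested genes. The smallest p-values belonged to mt-Tl1, a leucine transfer RNA, at 1.55 ± 0.56 (SE), mt-Tc, the cysteine transfer RNA, at 1.26 ± 0.54 (SE), and mt-Atp8, at 0.92 ± 0.43 (SE) (edgeR adjusted p = 0.334, 0.408 and 0.434). The aJ1aJ2 libraries had 7925, 22385, 7432, 7091 and 9377 CPM of mt-Cytb, against 8668, 6613, 8987, 5943 and 9667 with RW. Only aJ1aJ2 replicate 2 lay above the RW range. For mt-Co2 the log2 fold change was 0.58 ± 0.36 (SE) (edgeR adjusted p = 0.532). Without that library the median over the 7 abundant genes changed from 0.63 to 0.06. All 9 muscle genes also had log2 fold changes above 0, with a median of 1.68 and 0 called. With the muscle covariate the median over the 7 abundant genes was 0.05. Both ribosomal RNA members fell short of the count filter. Of the nuclear-encoded subunits, 0 of 73 were called, and 70 had log2 fold changes above 0 (median 0.37).

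In the second set at 7 days, mitochondrially encoded RNAs were lower after aN1aN2aN3 than after aJ1aJ2. All aJ1aJ2 libraries of this set hold lower sample IDs than the aN1aN2aN3 libraries, with IDs skipped between them. Antibody and place in the ID order therefore cannot be told apart here either. Of 17 tested members, 14 were called lower and 0 higher, where 19.6% of all tested genes were called in either direction and 10.4% lower. All 10 protein-coding members that were tested were among the 14, while mt-Atp8, mt-Nd3 and mt-Nd4l fell short of the count filter. The aJ1aJ2 libraries had 8908, 9184, 15027, 11548 and 10229 CPM of mt-Cytb and the aN1aN2aN3 libraries 7058, 3065, 3948, 3889 and 3549 CPM. Every aN1aN2aN3 library was below every aJ1aJ2 library, and mt-Cytb fell by 1.48 ± 0.32 (SE) on the log2 scale (edgeR adjusted p = 0.00935). For mt-Nd4, a complex I subunit, the values were 1856, 1787, 3400.0, 2719 and 4113 CPM and 1546, 619, 813, 824 and 777 CPM. These did not overlap either, at a log2 fold change of -1.75 ± 0.37 (SE) (edgeR adjusted p = 0.00815). On TMM-scaled CPM the groups were also disjoint for mt-Nd5 and mt-Atp6, making 4 of 17 members lower without overlap, against 7.14% of all tested genes. On CPM by total counts 9 were disjoint, those 4 with mt-Nd1, mt-Nd2, mt-Co2, mt-Co3 and mt-Tq, against 3.98% of all tested genes.

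Among the other complex I subunits, mt-Nd2 had 1163, 1198, 2256, 1979 and 3615 CPM with aJ1aJ2 and 1047, 348, 441, 426 and 439 with aN1aN2aN3 (log2 fold change -2.08 ± 0.44 (SE), edgeR adjusted p = 0.00904). The log2 fold change of mt-Nd1 was -1.66 ± 0.37 (SE) and that of mt-Nd5 -1.22 ± 0.28 (SE) (edgeR adjusted p = 0.0109 and 0.0112). In complex IV, mt-Co2 changed by -1.67 ± 0.39 (SE) and mt-Co3 by -2.12 ± 0.52 (SE) (edgeR adjusted p = 0.0129 and 0.0180). In complex V, mt-Atp6 changed by -2.51 ± 0.62 (SE) (edgeR adjusted p = 0.0183). Of these scarce genes, mt-Atp6 rested partly on aJ1aJ2 replicate 5, with 4.19, 6.55, 8.09, 6.4 and 36.2 CPM in the aJ1aJ2 libraries. Without that library the log2 fold change of mt-Atp6 was -1.50 (edgeR adjusted p = 0.00889).

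The count of calls depended on single libraries. Without aJ1aJ2 replicate 5, 12 members were called lower. Leaving out aN1aN2aN3 replicate 2, 3, 4 or 5 gave 8, 6, 8 and 8 calls, and the 6 were mt-Co2, mt-Cytb, mt-Nd1, mt-Nd2, mt-Nd4 and mt-Nd5. All 10 tested protein-coding members had log2 fold changes below 0 under each scaling tried, with medians from -1.53 to -1.67.

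**Figure D4:**
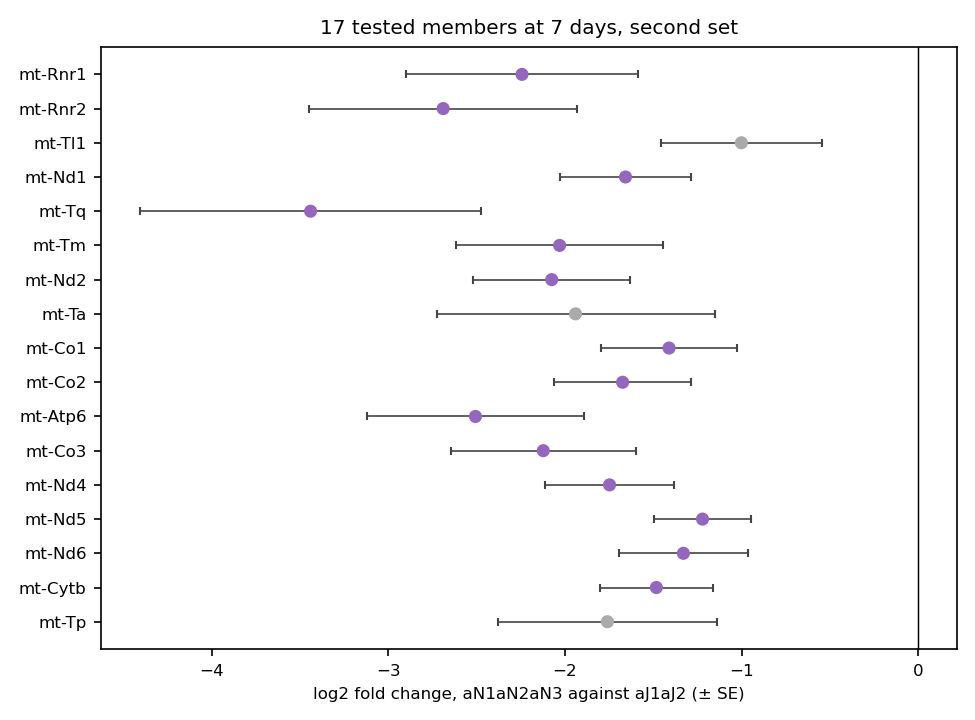
Log2 fold change of each of the 17 tested members, aN1aN2aN3 against aJ1aJ2 in the second set at 7 days, in their order on mitochondrial DNA; bars are SE from edgeR. Purple points passed an adjusted p of 0.05 and grey points did not. All 17 points lie left of 0.

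Nuclear-encoded partners of these subunits were lower in the same comparison. Of 74 tested nuclear-encoded subunits of complexes I to V, 52 were called lower and 0 higher, with a median log2 fold change of -0.95. The median was -1.67 over the 10 protein-coding members and -0.07 over all tested genes. The counts were 26 of 36 for complex I, 3 of 4 for complex II, 8 of 9 for complex III, 7 of 11 for complex IV and 8 of 14 for complex V. Examples are Ndufb3 of complex I at -1.45 and Uqcrh of complex III at -1.20 (edgeR adjusted p = 0.00276 and 0.00362). Of 15 tested genes for transcription and replication of mitochondrial DNA, 3 were called lower. Of 30 genes for processing and stability of mitochondrial RNA, 3 were called lower and 1 higher, and of 9 tested regulators of mitochondrial biogenesis 1 was called lower. In the same comparison 10.4% of all tested genes were called lower, so nothing is read from these counts. The medians of these lists were, in that order, -0.27, -0.18 and -0.16.

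Fat markers, those of brown fat, a tissue rich in mitochondria, and general adipocyte genes alike, moved with these genes. Of 6 brown fat genes, 5 were called lower, with a median of -2.89, where 10.4% of all tested genes were called lower. Their summed share was 0.117 to 0.302% with aJ1aJ2 and 0.0116 to 0.0830% with aN1aN2aN3. All 6 had counts in every library, and of 6 general adipocyte genes (Adipoq, Fabp4 and others) 5 were called lower, with a median of -2.38. Their summed share was 0.326 to 0.544% with aJ1aJ2 and 0.0418 to 0.186% with aN1aN2aN3. Cox8b and Cox7a1 of the brown fat list were also among the genes most like the protein-coding members over the 50 libraries (Pearson r = 0.94 and 0.93). The part of either fat list in the result was not tested. The muscle genes took 0.0395 to 13.2% and 0.778 to 3.80%. All 9 had log2 fold changes below 0, with a median of -1.59 and 0 called. With the muscle covariate 16 members and 14.4% of all tested genes were called lower. Haemoglobin genes and Alas2 together took 0.110 to 0.809% and 0.0273 to 0.229%. All 5 had log2 fold changes below 0, with a median of -1.44 and 0 called, and their part was not tested. Of 9 tested follicular cell genes, 2 were called higher (Tg at 1.31 and Pax8 at 0.78, edgeR adjusted p = 0.0137 and 0.0222) and 1 lower, the iodide transporter gene Slc5a5, at -1.91 (edgeR adjusted p = 0.0165). Their median was 0.19, with 4 of 9 below 0.

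The ribosomal RNA members were nearly uncounted outside the second set. There, mt-Rnr2, the large subunit RNA, and mt-Rnr1, the small subunit RNA, summed to 0.144 to 3.64 CPM over 40 libraries. In the first set at 7 days the aJ1aJ2 libraries held 2, 11, 2, 3 and 2 counts of mt-Rnr2, and in the second set they held 1678, 1234, 2682, 2139 and 11867. In CPM the second set values were 84.8, 80.8, 154, 107 and 719. Replicate 5 stood well above the other 4, and all 5 were far above the first set. The log2 difference between second and first set was 9.75 ± 1.08 (SE) for mt-Rnr2 and 5.71 ± 0.77 (SE) for mt-Rnr1 (edgeR adjusted p = 3.04e-05 and 7.32e-05). With aN1aN2aN3, mt-Rnr2 reached 82.4, 20.9, 34.7, 31.1 and 28.1 CPM, and its log2 fold change against aJ1aJ2 was -2.69 ± 0.76 (SE) (edgeR adjusted p = 0.0351). This call was lost in 5 of the 10 fits that left out 1 library. Without aJ1aJ2 replicate 5 it was -1.53 (edgeR adjusted p = 0.0293). The groups overlapped through aN1aN2aN3 replicate 1.

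Transfer RNA members were also rare, at 3.43 to 55.4 CPM in sum outside the second set and 21.1 to 279 CPM in its aJ1aJ2 libraries. Of the 22, 5 had no count in any library: mt-Tn, mt-Td, mt-Tk, mt-Tg and mt-Th, for asparagine, aspartate, lysine, glycine and histidine. At 3 counts, a count of 0 allows up to 0.0568 to 0.196 CPM per library, counting error only. The highest summed counts were 9090 for mt-Tc, the cysteine transfer RNA, and 7965 for mt-Tq, the glutamine transfer RNA. Next came mt-Ts1 with 2126, mt-Tl1 with 1612, mt-Ta with 1528, mt-Tm with 1350, mt-Ti with 1337, mt-Tp with 773 and mt-Ts2 with 507. The other 8 held 4 to 175 counts each. The genes that differed between the sets are shown in GENCODE M21 (GRCm38), with the anticodon in capitals. They are 66 to 71 bases long, little more than the read length, and 8 of the 22, here all but mt-Tm, lie on the strand opposite to most members.
mt-Tq: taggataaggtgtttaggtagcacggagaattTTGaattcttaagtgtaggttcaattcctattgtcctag
mt-Ta: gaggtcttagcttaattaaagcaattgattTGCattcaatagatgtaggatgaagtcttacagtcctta
mt-Tp: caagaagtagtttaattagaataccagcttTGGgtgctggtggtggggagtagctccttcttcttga
mt-Tm: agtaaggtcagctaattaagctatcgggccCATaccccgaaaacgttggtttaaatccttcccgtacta
mt-Tc: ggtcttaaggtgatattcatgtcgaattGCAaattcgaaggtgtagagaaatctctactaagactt

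Between the aJ1aJ2 groups of 7 days, 6 of 23 tested members were called higher in the second set than in the first and 5 lower, where 59.6% of all tested genes were called, 31.8% higher and 27.7% lower. The 6 were both ribosomal RNAs with mt-Ta, mt-Tp, mt-Tq and mt-Tm, the alanine, proline, glutamine and methionine transfer RNAs. For mt-Tq the second set had 10.7, 11.7, 22.8, 18.2 and 190.4 CPM, and the first had 1.39, 5.13, 0.839, 1.04 and 2.91, a log2 difference of 4.12 ± 1.05 (SE) (edgeR adjusted p = 0.00639). Without replicate 5 of the second set, far above the others, the mt-Tq difference was 2.41 and was still called by edgeR. Counts of mt-Ta were 69, 54, 100, 200 and 659 in the second set and 0, 0, 0, 1 and 0 in the first. Those of mt-Tp in the second set, 44, 42, 89, 39 and 266, also stood above the first set's 3, 11, 4, 2 and 1. In contrast mt-Tc had 0.303, 0.458, 0.631, 1.45 and 3.27 CPM in the second set and 6.02, 22.5, 3.69, 6.04 and 8.74 in the first, a log2 difference of -3.30 ± 0.79 (SE) (edgeR adjusted p = 0.00411).

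The scarce gene mt-Nd4l was lower in the second set, with counts of 1, 0, 4, 4 and 2 against 34, 60, 18, 31 and 39, a log2 difference of -4.24 ± 0.63 (SE) (edgeR adjusted p = 0.000138). For mt-Co2 the difference was -2.03 ± 0.41 (SE) (edgeR adjusted p = 0.00132), and mt-Nd6 and mt-Co1 were also called lower. Neither mt-Nd6 nor mt-Co1 was called without replicate 1 or without replicate 2 of the second set. With RLE factors 1 of the 7 abundant genes was called lower, and by DESeq2 4. All 13 protein-coding members had log2 differences below 0 on the TMM scale (median -0.97). Of 74 nuclear-encoded subunits, 59 were called higher and 0 lower (median 1.65). Without aJ1aJ2 replicate 2 of the first set, the median over the 7 abundant genes changed from -0.97 to -0.48. In CPM by total counts, mt-Cytb had 8908, 9184, 15027, 11548 and 10229 in the second set. In the first it had 7925, 22385, 7432, 7091 and 9377, an overlapping range. A fit on total counts was not run here, so no direction is given for the abundant genes as a set. Rn7sk, an RNA without a poly(A) tail, was higher in the second set by 3.52 on the log2 scale (edgeR adjusted p = 8.96e-07). The sets differ in run of IDs and tissue content as well as in the members, and these cannot be told apart. The RNA selection step of library preparation is not given in the sources used here.

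**Figure D5:**
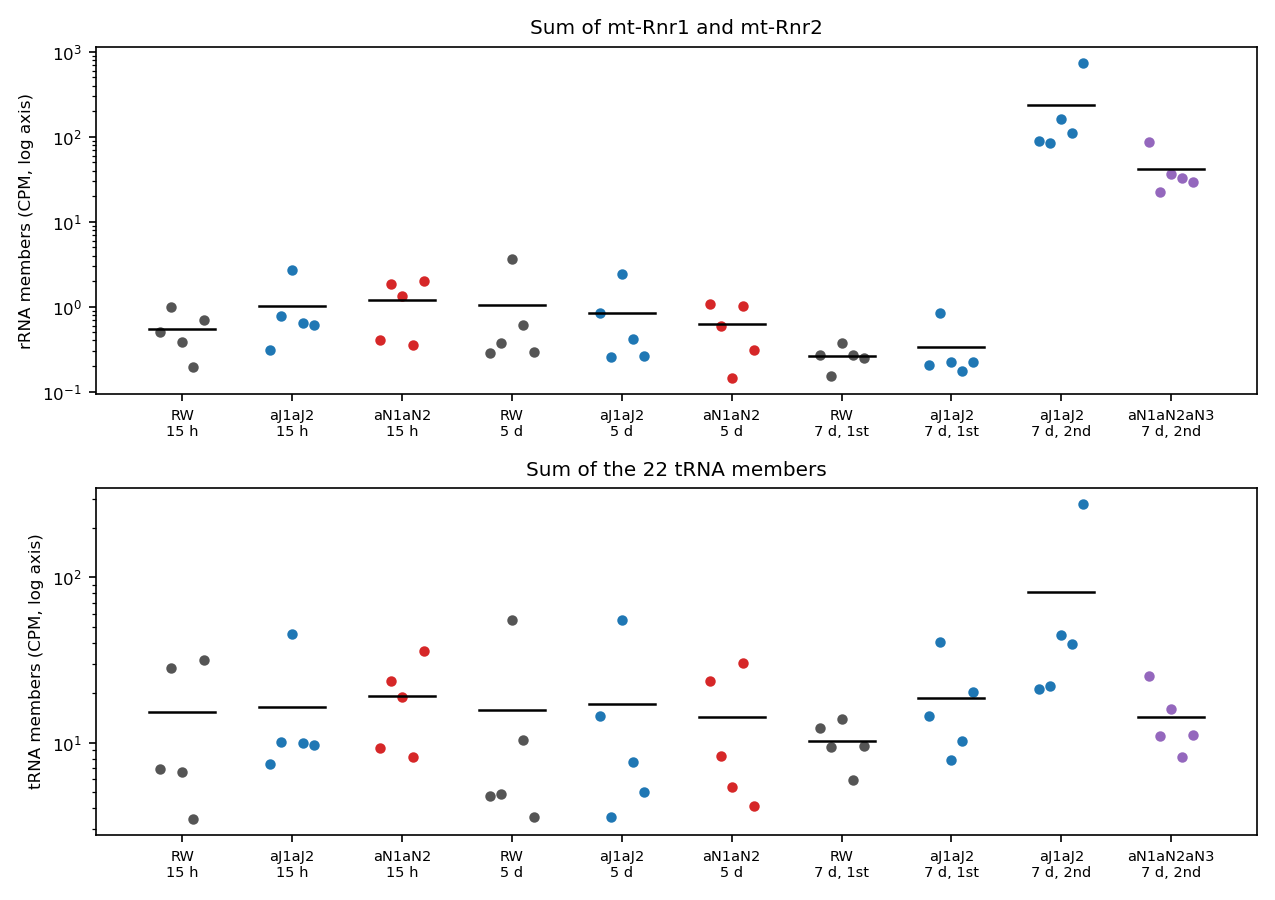
Summed CPM of the 2 ribosomal RNA members (top) and of the 22 transfer RNA members (bottom) in each library on log axes, left to right by replicate number; lines are group means. All 10 libraries of the second set lie above the other 40 in the top panel, and aJ1aJ2 replicate 5 is the highest library in both panels.

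The only protein-coding member on the opposite strand is mt-Nd6, a complex I subunit. Its counts per 1000 counts of mt-Nd5, the neighbour on the other strand, were 557, 476, 479, 504 and 521 in RW at 15 hours and 392, 354, 376, 371 and 382 in aJ1aJ2 of the first set. In the second set they were 195, 209, 252, 190.2 and 559 with aJ1aJ2 and 272, 231, 253, 248 and 259 with aN1aN2aN3. The RW libraries of the first set gave 373, 371, 349.9, 399.6 and 872, where replicate 5 stood alone. Whether counting used strand is not given in the sources used here, so reads from these genes and from RNA of the opposite strand may not have been told apart.

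Across the 50 libraries, with group means removed, the members varied together. The Pearson correlation of log2 CPM had a median of 0.97 over the 21 pairs of abundant genes, 0.88 over the 15 pairs of scarce genes and 0.87 over the 42 pairs of an abundant and a scarce gene. Libraries share depth, scaling and tissue content, so these values are a description. Of 16174 other genes with a mean of at least 1 CPM, those most like the mean of the protein-coding members were Acyp2 (r = 0.96), Atp5j (0.95) and Ndufa4 (0.95). Atp5j encodes a subunit of ATP synthase, Ndufa4 a respiratory chain subunit and Acyp2 an acylphosphatase. They were followed by Gm28437, Gm11966, Tmem126a, Ndufaf5, Gm6419, Atp5j2 and Gm13340 (r = 0.94 each). Gm28437 and Gm13340 share windows with mt-Co3 and mt-Co1.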

How the data were processed

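RNA was measured in 50 thyroid libraries by 50-base single-end sequencing, per the labels. The authors deposited raw read counts per Ensembl gene and FPKM values. Per the submitters' processing notes, GSNAP and limma were used, with no role stated, and no source used here names the genome build. The deposited FPKM values, divided by counts per kilobase, gave gene lengths equal to those of GENCODE M21. Their library scaling, relative to median-of-ratios size factors, was constant at 0.850 in 30 libraries and 1.26 in 20, so FPKM values were compared only within a block.

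Symbols from the reference table matched 52403 identifiers, and 233 had none. Counts were tested with edgeR 4.0.16 in R 4.3.3 (TMM factors, quasi-likelihood, robust; minimum count 10 and total 15; Benjamini-Hochberg threshold 0.05), with 1 fit per time or set. CPM values use total counts; tests use TMM factors. The SE of a log2 fold change is its size divided by the square root of edgeR's F statistic, and fold changes of genes with few counts depend on edgeR's prior count. Alternatives were RLE factors, total counts, no filter, DESeq2 1.42.0, limma 3.58.1 on log2(FPKM + 0.1), a muscle covariate (the log summed level of 9 genes), a replicate block and leaving out each library in turn. The scripts were tested on simulated data. Named were all called members, up to 8 per comparison, or the 3 of smallest p where none was called, with mt-Co2 and mt-Rnr2 always. The members and lists were chosen with earlier results of these data known. Replicates differed beyond sampling noise in all 100 pairs, with a smallest chi-square per degree of freedom of 17.1. Whether groups overlapped was judged on TMM-scaled CPM, and also, a choice made after seeing the data, on CPM by total counts.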

Additional observations from a re-analysis of the deposited data

Results flagged for a closer look

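In groups of 5 libraries, a highest or lowest library was noted where its gap to the next took more of the group's range than Dixon's 95% critical value. Over 6 measures in each of the 10 groups, 60 checks in all, this gave 23 flags, where chance gives about 1 in 20 checks. Several libraries were flagged on more than 1 measure, so the flags are not separate libraries and their number is not set against chance. Every flag fell on the highest library of its group.

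The percent of counts from mitochondrially encoded genes was 4.55% in replicate 3 of aJ1aJ2 at 15 hours (others 1.60 to 2.13), 10.6% in replicate 3 of RW at 5 days (others 1.49 to 2.78), 7.01% in replicate 2 of aJ1aJ2 of the first set (others 2.19 to 2.95) and 1.73% in replicate 1 of aN1aN2aN3 of the second set (others 0.704 to 0.910). Summed ribosomal RNA members were 2.68 CPM in replicate 3 of aJ1aJ2 at 15 hours (others 0.305 to 0.785), 3.64 CPM in replicate 3 of RW at 5 days (others 0.284 to 0.607), 2.41 CPM in replicate 3 of aJ1aJ2 at 5 days (others 0.254 to 0.839), 0.836 CPM in replicate 2 of aJ1aJ2 of the first set (others 0.173 to 0.224), 742 CPM in replicate 5 of aJ1aJ2 of the second set (others 83.4 to 162) and 86.3 CPM in replicate 1 of aN1aN2aN3 of the second set (others 22.4 to 36.6). Summed transfer RNA members were 45.2 CPM in replicate 3 of aJ1aJ2 at 15 hours (others 7.43 to 10.1), 55.3 CPM in replicate 3 of RW at 5 days (others 3.52 to 10.4), 55.4 CPM in replicate 3 of aJ1aJ2 at 5 days (others 3.56 to 14.4) and 279 CPM in replicate 5 of aJ1aJ2 of the second set (others 21.1 to 45.0). Scarce genes per 1000 abundant counts were 3.47 in replicate 1 of aJ1aJ2 at 5 days (others 1.10 to 1.32) and 2.91 in replicate 5 of aJ1aJ2 of the second set (others 0.789 to 1.00). Nuclear copies per 1000 abundant counts were 1.96 in replicate 5 of aN1aN2 at 15 hours (others 1.52 to 1.62), 1.68 in replicate 1 of aJ1aJ2 at 5 days (others 0.408 to 0.502) and 2.26 in replicate 5 of aJ1aJ2 of the second set (others 0.602 to 0.769). Counts of mt-Nd6 per 1000 of mt-Nd5 were 663 in replicate 5 of aN1aN2 at 15 hours (others 368 to 446), 491 in replicate 4 of aJ1aJ2 at 5 days (others 412 to 428), 872 in replicate 5 of RW of the first set (others 349.9 to 399.6) and 559 in replicate 5 of aJ1aJ2 of the second set (others 190.2 to 252).

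Relative to RW, aN1aN2 lay on opposite sides at the 2 times in every library. The ratio of the group means of scarce per 1000 abundant counts was 4.90 at 15 hours and 0.375 at 5 days. For the nuclear copies it was 5.81 and 0.293. The difference between the times was not tested. The RW and aN1aN2 groups of 15 hours come from different runs of IDs, and those of 5 days lie among the first 11 and the last 9 IDs of 1 run, so antibody and ID order cannot be told apart at either time.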

How the results depend on the processing

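The number of called members kept within 1.5 times its value under RLE size factors in all 12 comparisons and, where run, without a count filter and by limma on FPKM values. For aN1aN2 against aJ1aJ2 at 15 hours it was 4 with total counts, 7 by DESeq2, 6 with the muscle covariate, 4 with the replicate block and 1 to 5 with 1 library left out. With the muscle covariate it was 5 for aJ1aJ2 and 9 for aN1aN2 against RW at 5 days. For aN1aN2aN3 against aJ1aJ2 it was 8 with the replicate block and 6 to 15 with 1 library left out. DESeq2 gave 17 between the sets and 1 for aN1aN2 at 5 days against 15 hours. Leaving out 1 library gave 0 to 5 for RW at 5 days against 15 hours. In the RW group at 7 days, the mitochondrial share was 3.40% with Tg left out of the total.

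Some log2 fold changes changed sign, among them values of mt-Rnr1 and mt-Rnr2 that were not near 0 in the main fit. For aJ1aJ2 against RW at 15 hours, mt-Co2 was 0.012 with RLE factors, 0.055 with total counts, 0.013 without a filter, 0.014 by DESeq2, 0.046 with the muscle covariate, 0.039 with the replicate block and 0.080 by limma. With 1 library left out mt-Co2 ranged from -0.28 to 0.30 and mt-Rnr1 from -0.0048 to 1.25. For aN1aN2 against aJ1aJ2, mt-Rnr2 was -0.071 with the muscle covariate at 15 hours and 0.30 with the replicate block at 5 days. With 1 library left out mt-Rnr2 ranged from -0.21 to 0.75 and from -0.96 to 0.75 at these times, and mt-Co2 at 5 days from -0.61 to 0.033. Against RW at 5 days it ranged for mt-Rnr2 from -2.11 to 0.64 with aJ1aJ2 and from -1.82 to 0.14 with aN1aN2. The causes were not tested.

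The replicate numbers were not taken to pair libraries. Same-numbered libraries correlated in their deviations from group means between -0.31 and 0.76 at 15 hours, -0.65 and 0.68 at 5 days, -0.51 and 0.22 in the first set and -0.23 and 0.04 in the second. Libraries that correlated best with their own number were 5 of 15, 6 of 15, 1 of 10 and 0 of 10. Depth limits the scarce genes, the ribosomal RNAs and the transfer RNAs, many of which held under 10 counts in a library. The limma fit on FPKM values was not run for the 15-hour comparisons of aN1aN2, whose groups lie in different scaling blocks.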

Other observations

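Genes that act on mitochondrial DNA and RNA were tested in the other comparisons as well. Of 15 tested genes for transcription and replication of mitochondrial DNA and 30 for processing and stability of its RNA, edgeR called 0 in each comparison of antibodies at 15 hours and at 5 days, where their medians lay between -0.21 and 0.20. Between the aJ1aJ2 groups of the second and first set, 11 of the 15 were called higher and 1 lower, with a median log2 difference of 0.78, and 15 of the 30 were called higher and 3 lower, with a median of 0.36. The nuclear-encoded subunits were mostly higher there. The protein-coding members had log2 differences below 0 on the TMM scale, but no direction is given for the abundant ones as a set. Among 9 regulators of mitochondrial biogenesis, 1 was called higher and 4 lower. In that comparison 59.6% of all tested genes were called.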
